A study of Mus musculus with 56 samples.

Results

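Glucocorticoids reach the nucleus through the glucocorticoid receptor, and a small group of genes is widely used to read how active that receptor is. The kidney transcripts of the receptor gene Nr3c1 and of 7 such targets are described here, namely Fkbp5, Tsc22d3, Zbtb16, Klf9, Ddit4, Mt1 and Mt2. These 8 genes were taken by name out of the 17027 genes in the deposited kidney table. The table covered 56 kidneys of female C57BL/6J mice aged 9 weeks with no genetic change named in the labels. All mice were kept in a 12 h light and 12 h dark cycle, and their food was given only in the daytime (daytime-restricted feeding, DRF, 28 mice) or only at night (nighttime-restricted feeding, NRF, the reference, 28 mice) for 7 days. Kidneys were collected at ZT0, 4, 8, 12, 16, 20 and 24, where ZT (zeitgeber time) counts the hours from the onset of light, with 4 mice in each of the 14 groups, and all mice of both regimens had free access to chow before the restriction.

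In its resting state the receptor sits in the cytoplasm with heat shock protein chaperones and co-chaperones, and hormone binding releases it to bind glucocorticoid response elements in DNA. In rodents, circulating corticosterone normally rises toward the active phase, and meal times can change that daily profile. Fkbp5 and Tsc22d3 are direct targets of the receptor in many tissues, and Fkbp5 protein in turn lowers the affinity of the receptor for its hormone. The kidney is a strong site of corticosteroid action, where the receptor shares its ligands with the mineralocorticoid receptor. Hormone was not among the measurements used here, so all that follows concerns transcripts.

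Levels are given as TPM (length-normalised transcript abundance, reads per unit of gene length, scaled to the same sum in each kidney), recomputed from the deposited values. Each kidney gave 22.7 to 25.1 M reads assigned to genes, which left between 42 and 10333 reads behind any single value of the 8 genes. Averaged over the 56 kidneys, the order of levels was Mt1 (500 TPM), Mt2 (327 TPM), Klf9 (135 TPM), Nr3c1 (59.4 TPM), Tsc22d3 (45.7 TPM), Fkbp5 (19.7 TPM), Ddit4 (18.2 TPM) and Zbtb16 (9.88 TPM). Of the neighbours in that order, Klf9 and Nr3c1 had ranges that did not overlap, 83.8 to 202 TPM against 47.6 to 71.4 TPM, while the ranges of every other pair of neighbours overlapped. The lengths behind the TPM of Nr3c1 and Klf9 were found by search, since the annotated lengths did not give whole reads, so the level of these 2 genes beside the others carries that uncertainty. Their comparisons between mice rest on these lengths too, because each deposited value was multiplied by the gene length before reads were recovered from it. The annotated length of Mt1, 1246 bases, covers its whole gene span, with any introns in it, while that of Mt2 is 588 bases. The levels of Mt1 and Mt2 beside each other depend on these lengths.

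Markers of renal cortex (Kap, Slc34a1, Umod and others, 7 of 8 measured) summed to between 41521 and 165772 TPM. Most of that sum was Kap, which ran from 31471 to 156413 TPM. Markers of medulla (8 of 8) summed to between 1363 and 4157 TPM. Among them Slc14a2 ran from 0.12 to 327 TPM and Akr1b3 from 9.71 to 398 TPM, so kidneys differed widely in single medulla markers. The part of such differences in the values of the 8 genes was not tested. The steroid enzymes of the adrenal gland were near 0, with medians of 0.11 TPM for Cyp11a1 and 0.03 TPM for Cyp21a1. The 4 measured adrenal markers of the 8 listed summed to 53.9 to 67.9 TPM, most of it Fdx1 with a median of 55.3 TPM. Adipose markers (7 of 7) stood out in single kidneys, with sums from 19.7 to 3437 TPM, and they passed 500 TPM in 6 NRF kidneys and 1 DRF kidney. Blood markers (3 of 6 measured) summed to 87.5 to 616 TPM, immune markers (8 of 8) to 456 to 1772 TPM and liver markers (7 of 7) to 233 to 814 TPM. Replicates correlated at a median Pearson r of 0.988 over genes, with a lowest value of 0.969. In bulk tissue, fewer cells of a type and less RNA per cell cannot be told apart.

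**Figure D1:**
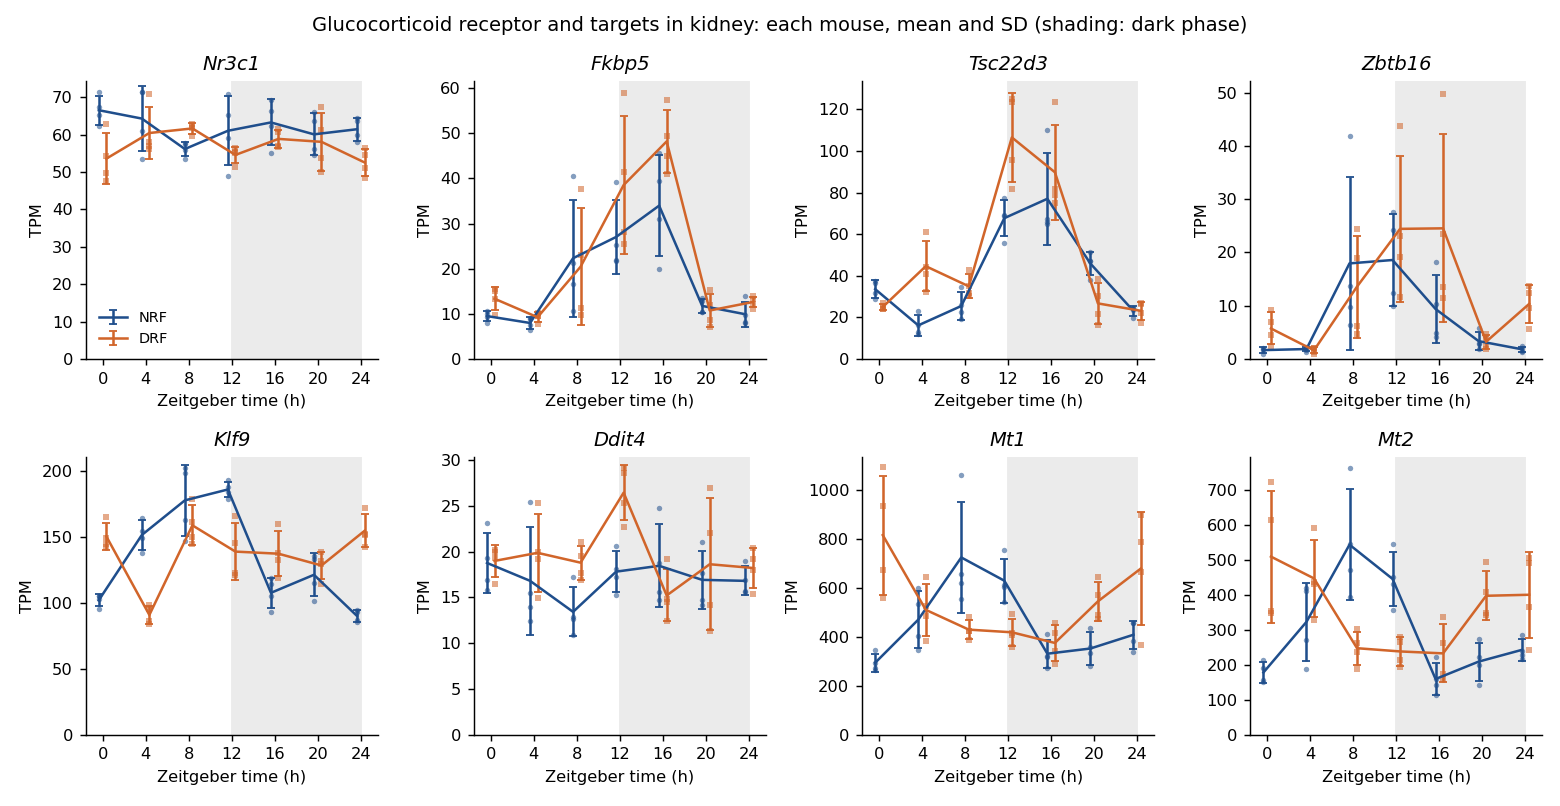
Level in TPM (vertical axis, from 0) against zeitgeber time in hours (horizontal axis) for the 8 genes, with NRF in blue and DRF in orange. Points are single mice, lines join the means of 4 mice, bars are SD and shading marks the dark phase. Fkbp5 and Tsc22d3 have their high values around ZT12 and ZT16 in both regimens. Those of Zbtb16 lie at ZT8 and ZT12 under NRF and at ZT12 and ZT16 under DRF. The high values of Mt1 and Mt2 lie at ZT8 under NRF and at ZT0 under DRF.

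To determine which of the genes followed a daily rhythm, a 24-h cosine was fitted to the 28 mice of each regimen. Under NRF, 6 of the 8 genes were rhythmic at an adjusted p under 0.05, where 54.2% of the 13348 genes tested were. Under DRF, 5 of the 8 were rhythmic, against 36% of all genes. The 5 genes rhythmic under both regimens were Fkbp5, Tsc22d3, Zbtb16, Mt1 and Mt2, Klf9 was rhythmic under NRF, and Nr3c1 and Ddit4 passed in neither regimen. These counts stayed at 6 and 5 when any single kidney was left out. The test of the difference in rhythm itself called 4 of the 8 genes (Tsc22d3, Klf9, Mt1 and Mt2), against 45.2% of all genes, so the share among the 8 lay near the background. The count was 4 or 5 without any single kidney. Median-of-ratios rescaling between kidneys gave 6, adding Nr3c1 (adjusted p = 0.0159) and Ddit4 (adjusted p = 0.0251).

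**Figure D2:**
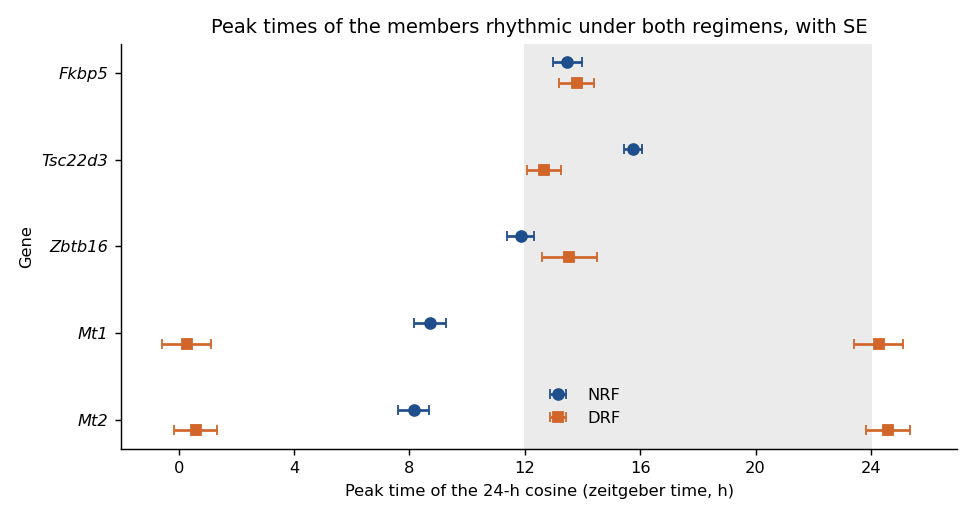
Peak time of the fitted 24-h cosine in zeitgeber hours (horizontal axis) for the 5 genes rhythmic under both regimens (vertical axis), with bars of 1 SE, NRF as blue circles and DRF as orange squares, and the dark phase shaded. Peaks just after ZT0 are drawn a second time 24 h later. The pairs of points lie close together for Fkbp5, at 13.5 and 13.8 h, and far apart for Mt1, at 8.72 and 0.27 h.

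A second, 12-h component was added to each fit. Such a component can reflect a second daily peak, or a single peak or low point that is not shaped like a cosine. None of the 8 genes had one under NRF by limma, with or without voom weights on the recovered reads, where 0.644% of genes did. Before adjustment, limma gave p under 0.05 for 2 of the 8, Tsc22d3 and Mt2, with adjusted p of 0.345 and 0.255. It did so for 1461 of the 13348 genes tested. Under DRF, 3 of the 8 genes had one, Fkbp5, Tsc22d3 and Klf9, against 24.7% of all genes. That count became 5 without DRF ZT0 replicate 2 or without DRF ZT24 replicate 4, and 5 with median-of-ratios rescaling. The component was strongest in Tsc22d3, with a 12-h amplitude of 0.61 in log2 units and an adjusted p of 5.84e-05. Fkbp5 had a single main peak under DRF. Its DRF means were 38.5 TPM at ZT12 and 48.2 TPM at ZT16, and no higher than 20.4 TPM at the other times. The Fkbp5 call (amplitude 0.45, adjusted p = 0.0375) was lost without any 1 of DRF ZT8 replicate 3 or 4, DRF ZT12 replicate 4, DRF ZT16 replicate 4 or DRF ZT20 replicate 1, 2 or 4, with adjusted p up to 0.102.

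The level at the same zeitgeber time was compared between regimens next. At ZT0, 4 of the 8 genes differed against 17% of all genes, at ZT4 2 against 27.5%, at ZT8 2 against 15.4% and at ZT12 5 against 18.9%. At ZT16, 1 of the 8 differed against 4.73% of all genes, at ZT20 3 against 17% and at ZT24 3 against 14.8%. At ZT4 the share of the 8 genes was slightly below that of all genes, and at the other times it was above. The mean over the 6 clock times (mesor) differed in 1 of the 8, Tsc22d3, against 9.3% of all genes. Single kidneys moved several of these counts. The ZT8 count was 1 without DRF ZT8 replicate 1, and the ZT20 count was 1 without NRF ZT20 replicate 1. The ZT12 count was 2 or 3 without DRF ZT12 replicate 1, 2 or 4 or NRF ZT12 replicate 2 or 3. The ZT16 count was 0 without DRF ZT16 replicate 1, 2 or 3 or NRF ZT16 replicate 1 or 4, and 2 without NRF ZT16 replicate 2. The mesor count was 2 without DRF ZT20 replicate 2, NRF ZT4 replicate 4, NRF ZT8 replicate 4, NRF ZT12 replicate 4 or NRF ZT16 replicate 2. The ZT0, ZT4 and ZT24 counts moved by no more than 1 without any single kidney.

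**Figure D3:**
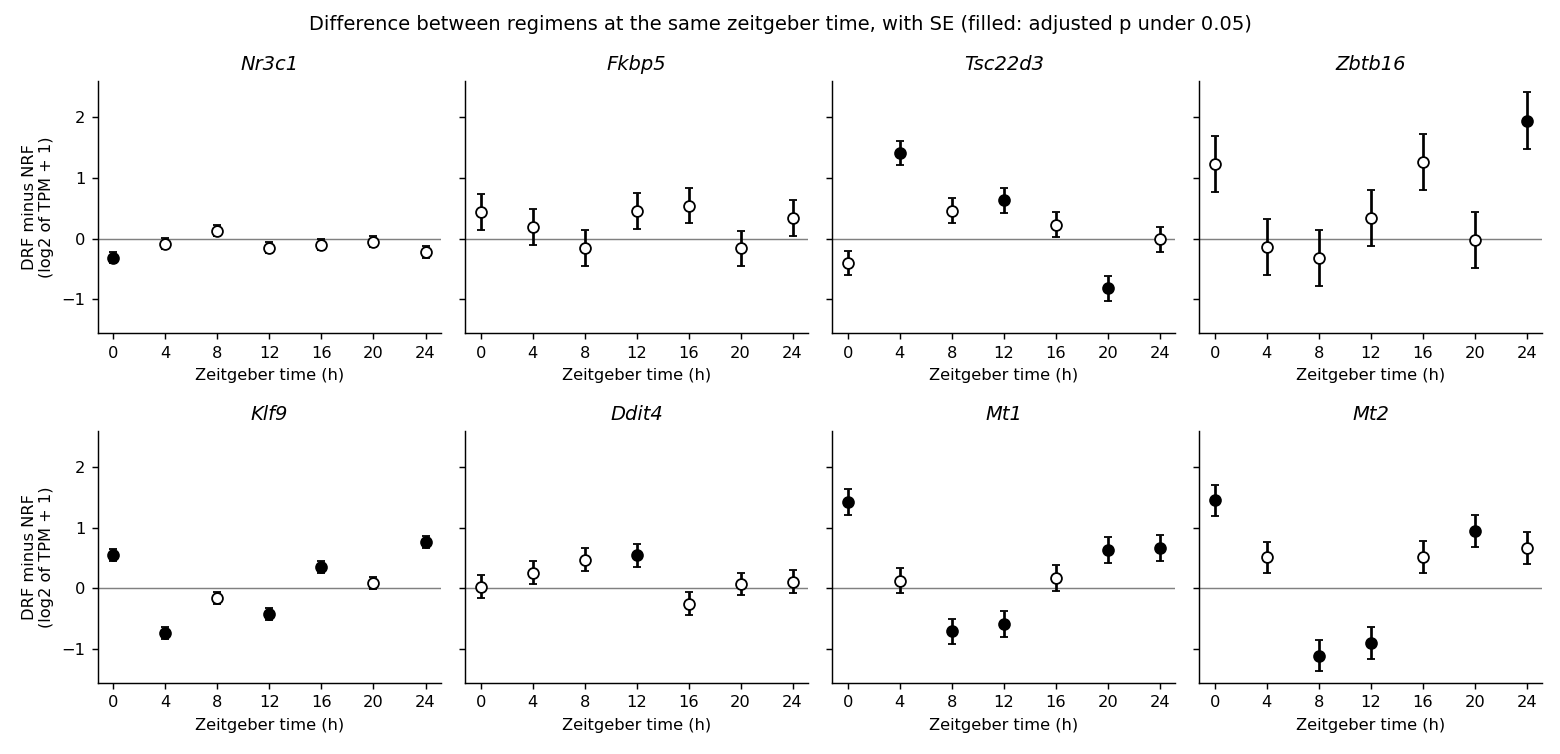
Difference between regimens, DRF minus NRF in log2 of TPM + 1 (vertical axis, shared by the panels), at each zeitgeber time in hours (horizontal axis) for the 8 genes. Bars are 1 SE from the fit over all 56 mice and filled points have an adjusted p under 0.05. The highest filled point is Zbtb16 at ZT24, at 1.95, and the lowest is Mt2 at ZT8, at -1.11.

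Because the meals of the 2 regimens fell in opposite phases, each DRF time was also set against the NRF time 12 h away, which compares kidneys at the same distance from the start of the phase with food. At DRF ZT0, 3 of the 8 genes differed against 9.99% of all genes, at DRF ZT4 5 against 18.2%, and at DRF ZT8 2 against 14.7%. At DRF ZT12, 6 of the 8 differed against 16.9% of all genes, at DRF ZT16 3 against 32.8% and at DRF ZT20 3 against 12.3%. These contrasts reuse the kidneys of the same-time comparison. The DRF ZT4 count was 3 without NRF ZT16 replicate 2. The DRF ZT8 count was 1 without DRF ZT8 replicate 1 or 2 or NRF ZT20 replicate 4, and the DRF ZT20 count was 1 without NRF ZT8 replicate 4. At DRF ZT16 the median difference of all genes was -0.10 in log2 units, and it was 0.00 after median-of-ratios rescaling, with 3 of the 8 called either way. One of the 6 calls at DRF ZT12, that of Nr3c1 (adjusted p = 0.0474), was lost without any 1 of 27 of the 56 kidneys, with adjusted p up to 0.169, and is not used further.

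ZT24 and ZT0 are the same clock time, a day apart. None of the 8 genes differed between them under NRF, where limma called 0.757% of all genes and 1037 genes had an unadjusted p under 0.05. None of the 8 differed under DRF, where limma called 0% of all genes and 563 genes had an unadjusted p under 0.05. Under NRF, 2 of the 8 (Tsc22d3 and Mt1) had an unadjusted limma p under 0.05, with adjusted p of 0.451 and 0.559, and under DRF none of the 8 was. Voom on the recovered reads also called none in either regimen.

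Nr3c1 encodes the receptor itself and lies at chr18:39410545-39519421 on the minus strand (GRCm38). It had the flattest profile of the 8. Under NRF its highest group mean was at ZT0, where the 4 mice had 71.4, 65.2, 62.2 and 67.3 TPM (66.5 ± 3.88, SD, n = 4). Its lowest NRF mean was at ZT8, with 55.9, 57.6, 53.5 and 57.5 TPM. At NRF ZT24, the clock time of ZT0 a day later, the mean was 61.4 TPM, below those at ZT4 (64.3 TPM) and ZT16 (63.2 TPM). Under DRF the highest mean was at ZT8, with 62.4, 59.7, 61.7 and 62.8 TPM, and the lowest at ZT24, with 54.4, 51.1, 48.4 and 56.3 TPM. The highest mean exceeded the lowest by 1.18-fold under NRF and by 1.17-fold under DRF, and the 24-h amplitude was 0.05 ± 0.04 (SE) and 0.06 ± 0.04 in log2 units. Neither passed the test of rhythm, with adjusted p of 0.448 and 0.378.

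The largest difference in Nr3c1 between regimens was at ZT0, where the 4 DRF mice had 47.6, 62.8, 54.2 and 49.6 TPM. One DRF mouse lay above the lowest NRF mouse, so the groups overlapped. DRF was lower by a log2 difference of -0.31 ± 0.09 (SE, adjusted p = 0.0144). The call was lost without DRF ZT0 replicate 1 or NRF ZT0 replicate 1, with adjusted p up to 0.075. At ZT24, the same clock time a day later, the 4 DRF mice lay below all 4 NRF mice, with a difference of -0.22 ± 0.09 that did not pass (adjusted p = 0.102) but passed with median-of-ratios rescaling (adjusted p = 0.0422). At ZT8 the groups did not overlap either, DRF being the higher, with a difference of 0.13 ± 0.09 that did not pass (adjusted p = 0.363).

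Fkbp5 encodes a co-chaperone of the receptor complex that is itself induced by glucocorticoids. It lies at chr17:28399094-28517527 on the minus strand. The highest group mean was at ZT16 in both regimens and the lowest at ZT4 in both. At ZT16 the NRF mice had 39.3, 45.6, 31 and 19.9 TPM (34.0 ± 11.1, SD, n = 4) and the DRF mice 57.3, 40.9, 45 and 49.4 TPM (48.2 ± 7.03). At ZT4 the NRF mice had 8.79, 6.37, 9.2 and 7.62 TPM and the DRF mice 9.59, 9.59, 10.2 and 7.68 TPM. The highest mean was thus 4.25 times the lowest under NRF and 5.2 times under DRF, and the values at ZT16 and ZT4 did not overlap in either regimen.

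The Fkbp5 peak lay close to the same hour in both regimens. Its fitted peak was at 13.5 ± 0.50 h (SE) under NRF and 13.8 ± 0.61 h under DRF, a shift of 0.33 h with a 95% interval of -1.28 to 1.94 h. Its amplitude was 0.91 ± 0.11 and 0.97 ± 0.14 in log2 units (adjusted p = 5.07e-07 and 4.02e-05), and their ratio had a 95% interval of 0.73 to 1.58. The test of a different rhythm gave an adjusted p of 0.905. The groups overlapped at every ZT, and the largest difference, 0.54 ± 0.29 at ZT16, did not pass (adjusted p = 0.312). Set 12 h apart, Fkbp5 at DRF ZT16 was 5.47-fold higher than at NRF ZT4 (log2 difference 2.45 ± 0.29, adjusted p = 1.15e-08). At DRF ZT4 it was lower than at NRF ZT16 by a log2 difference of -1.71 ± 0.29 (adjusted p = 4.55e-05), and both calls held without any single kidney. Within groups, mice were widely spread at ZT8, from 10.6 to 40.6 TPM under NRF and from 9.8 to 37.6 TPM under DRF.

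The 250 bases before the start that the RefSeq table gives for Fkbp5, which lies inside the gene span above and not at its upstream end, and before the most upstream start of Tsc22d3 are shown because these 2 targets peaked near each other yet differed in how their rhythm compared between regimens. They are from RefSeq (GRCm38.p6), chr17:28486150-28486399 and chrX:140600523-140600772, both read on the minus strand, and capitals mark the E-box CACGTG in Fkbp5 and the glucocorticoid half-site TGTTCT in Tsc22d3.
Fkbp5: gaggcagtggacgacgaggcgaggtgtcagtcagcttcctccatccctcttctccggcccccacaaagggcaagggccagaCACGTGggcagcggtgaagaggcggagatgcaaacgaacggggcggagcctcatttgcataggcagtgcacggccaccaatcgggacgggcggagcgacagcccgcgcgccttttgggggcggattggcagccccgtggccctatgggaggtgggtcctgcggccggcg
Tsc22d3: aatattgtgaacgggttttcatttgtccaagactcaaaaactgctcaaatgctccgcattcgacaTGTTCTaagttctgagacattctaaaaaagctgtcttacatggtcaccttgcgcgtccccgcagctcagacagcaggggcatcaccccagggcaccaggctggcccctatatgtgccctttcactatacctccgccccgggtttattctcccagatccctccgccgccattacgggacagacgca

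Across 32851 such windows of 27025 genes, searched on both strands, TGTTCT was found in 16.1%, CACGTG in 6.02% and the full element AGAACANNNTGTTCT, which contains the half-site, in 0.00913%. RefSeq windows were at hand for 6 of the 7 targets, not for Zbtb16. Among their 8 windows (Tsc22d3 had 3 starts), none held the full element, 1 held the half-site and 1 the E-box. A match is a string of letters and not a binding site, and response elements far from the start were not searched.

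Tsc22d3 encodes a leucine zipper protein, also known as GILZ, that carries part of the anti-inflammatory action of glucocorticoids. It lies at chrX:140539528-140600659. Under NRF its highest mean was at ZT16, with 65.9, 110, 67.1 and 65 TPM (77.0 ± 22.0, SD, n = 4), where replicate 2 stood above 3 close values. That kidney also had the highest sum of medulla markers, 4157 TPM, and 1132 TPM of adipose markers, whose part in this value was not tested. Its lowest NRF mean was at ZT4, with 13.1, 12.2, 16.3 and 23.2 TPM. Under DRF the highest mean was at ZT12, with 95.6, 124, 81.9 and 125 TPM, and the lowest at ZT24, with 26.4, 26.8, 22.1 and 17.4 TPM. The range of means was 4.75-fold under NRF and 4.59-fold under DRF.

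The fitted 24-h peak of Tsc22d3 was earlier under DRF. It was at 15.7 ± 0.31 h (SE) under NRF and 12.7 ± 0.58 h under DRF, a shift of -3.07 h with a 95% interval of -4.43 to -1.72 h. The amplitudes were 1.05 ± 0.09 and 0.94 ± 0.13 in log2 units (adjusted p = 1.65e-09 and 1.37e-05). The test of a different rhythm gave an adjusted p of 0.00078. With the cosine fitted to TPM on the linear scale the shift was -2.29 h, the smallest of the alternatives tried. The NRF profile was also moved in 4-h steps and matched to DRF over the 6 clock times, as a description. The best match was a move of 20 h later, the same as 4 h earlier (r = 0.68), little above no move (r = 0.62).

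Tsc22d3 also had a second rise in the light phase under DRF, and the fitted 24-h peak above draws on these values too. At ZT4 the DRF mice had 44.5, 40.7, 32.2 and 61.1 TPM, all above the 4 NRF mice given before, with a log2 difference of 1.41 ± 0.21 (2.66-fold, adjusted p = 1.1e-06). The DRF mean at ZT4, 44.6 TPM, lay above that at ZT8 (34.9 TPM) and above the ZT0 mice, which had 23.9 to 26.8 TPM, and the 12-h component reported above had its first peak at 2.59 h. At ZT20 DRF was lower by a log2 difference of -0.82 ± 0.21 (adjusted p = 0.00392), with 1 DRF mouse inside the NRF range. At ZT12 DRF was 1.55-fold higher (0.63 ± 0.21, adjusted p = 0.0245) with no overlap, although the call was lost without DRF ZT12 replicate 2 or 4 or NRF ZT12 replicate 2, with adjusted p up to 0.0921. Averaged over the 6 clock times, Tsc22d3 was higher under DRF by 0.28 ± 0.08 in log2 units (adjusted p = 0.0161). Without the ZT24 groups that difference was 0.25, with an adjusted p of 0.0611.

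Set 12 h apart, Tsc22d3 was 5.32-fold higher at DRF ZT16 than at NRF ZT4 (2.41 ± 0.21, adjusted p = 2.74e-12) and 3.68-fold higher at DRF ZT12 than at NRF ZT0 and ZT24 (1.88 ± 0.18, adjusted p = 5.12e-11). At DRF ZT0 and ZT24 it was lower than at NRF ZT12 by a log2 difference of -1.45 ± 0.18 (adjusted p = 3.26e-08). These 3 calls held without any single kidney. The difference between DRF ZT4 and NRF ZT16, -0.77 ± 0.21 (adjusted p = 0.00533), did not hold without NRF ZT16 replicate 2 (adjusted p = 0.0511) or without the 7 kidneys high in adipose markers (adjusted p = 0.0746).

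Zbtb16 encodes the transcription factor PLZF, a zinc finger repressor that is strongly induced by glucocorticoids in several tissues. It lies at chr9:48654297-48836222 on the minus strand and had the largest daily range of the 8 genes, 11-fold between group means under NRF and 14.9-fold under DRF. The highest NRF mean was at ZT12, with 24.3, 12.5, 10 and 27.6 TPM, and the lowest at ZT0, with 1.63, 2.16, 1 and 1.95 TPM. The highest DRF mean was at ZT16, with 49.7, 11.4, 23.5 and 13.5 TPM, and the lowest at ZT4, with 2.16, 1.04, 1.36 and 2.04 TPM. The high groups were widely spread and the low groups narrow. The widest NRF spread was at ZT8, from 6.45 to 41.8 TPM, where the highest mouse, replicate 4, also had 40.6 TPM of Fkbp5, a level that 1 other NRF mouse exceeded.

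The Zbtb16 peak was at 11.9 ± 0.48 h under NRF and 13.5 ± 0.95 h under DRF, a shift of 1.7 h with a 95% interval of -0.48 to 3.87 h. The amplitudes were 1.44 ± 0.16 and 1.1 ± 0.25 in log2 units (adjusted p = 1.51e-07 and 0.00421), and the test of a different rhythm did not pass (adjusted p = 0.214). The regimens differed at ZT24. The NRF mice had 1.38, 1.52, 2.49 and 2 TPM and the DRF mice 12.5, 13.7, 9.66 and 5.59 TPM, a mean 5.6 times as high, with no overlap. The log2 difference was 1.95 ± 0.46 (adjusted p = 0.00267) and held without any single kidney. At ZT0 the groups did not overlap either, with means of 1.69 TPM under NRF and 5.74 TPM under DRF, and the difference of 1.23 ± 0.46 did not pass (adjusted p = 0.0596), though it passed with median-of-ratios rescaling (adjusted p = 0.0445), with a pseudocount of 0.1 (adjusted p = 0.0273) and without any 1 of DRF ZT0 replicate 2, DRF ZT16 replicate 1 or NRF ZT8 replicate 4. Because log2 of TPM + 1 compresses low values, these differences understate the ratio of means. Set 12 h apart, Zbtb16 was 8.39-fold higher at DRF ZT12 than at NRF ZT0 and ZT24 (3.07 ± 0.40, adjusted p = 1.49e-07) and 7.59-fold higher at DRF ZT16 than at NRF ZT4 (2.92 ± 0.46, adjusted p = 2.87e-06).

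Klf9 encodes a Krüppel-like transcription factor that responds to glucocorticoids and also follows the circadian clock in many tissues. It lies at chr19:23141226-23168134. Under NRF it formed 1 daytime plateau. Its highest NRF mean was at ZT12, with 184, 193, 188 and 179 TPM (186 ± 5.95, SD, n = 4), and its lowest at ZT24, with 94.9, 85.6, 93.1 and 86.8 TPM. Under DRF the highest mean was at ZT8, with 179, 162, 145 and 150 TPM, and the lowest at ZT4, with 86, 83.8, 98.6 and 95 TPM. The other DRF means lay between 128 and 155 TPM, so ZT4 was a single low point between 2 high ones.

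The 24-h amplitude of Klf9 was 0.47 ± 0.06 in log2 units under NRF, with a peak at 9.36 ± 0.48 h (adjusted p = 6.58e-07). Under DRF it was 0.09 ± 0.08 (adjusted p = 0.626), and the ratio of amplitudes was 0.19, with a 95% interval of 0.03 to 1.18. The test of a different rhythm passed (adjusted p = 0.000142). A 12-h component of 0.26 passed under DRF (adjusted p = 0.00638). It held without any single kidney but not when all kidneys numbered 4 were left out (adjusted p = 0.0901). The DRF mean was 90.8 TPM at ZT4 but 137 TPM at ZT16, between those at ZT12 (139 TPM) and ZT20 (128 TPM). The low point at ZT4 thus had no match 12 h later, and the component does not by itself show a 12-h rhythm.

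Klf9 differed between regimens at 5 of the 7 times, with no overlap at any of the 5. At ZT4 DRF was lower by a log2 difference of -0.73 ± 0.10 (adjusted p = 2.56e-07), where the NRF mice had 154, 138, 164 and 149 TPM. At ZT12 it was lower by -0.43 ± 0.10 (adjusted p = 0.00127). At ZT24 it was 1.71-fold higher (0.77 ± 0.10, adjusted p = 3.11e-07), with 152, 172, 143 and 152 TPM in the DRF mice, and at ZT0 1.47-fold higher (0.55 ± 0.10, adjusted p = 5.92e-05). Those 4 calls held without any single kidney. The call at ZT16 (0.35 ± 0.10, adjusted p = 0.0295) was lost without DRF ZT16 replicate 1, 2 or 3 or NRF ZT16 replicate 1 or 4, with adjusted p up to 0.13, and without the 7 kidneys high in adipose markers (adjusted p = 0.242). The opposite signs left the mean over the clock at -0.04 ± 0.04 (adjusted p = 0.618).

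Ddit4 encodes REDD1, an inhibitor of the growth kinase complex mTORC1 that is induced by glucocorticoids, low oxygen and other stresses. It lies at chr10:59949669-59951834 on the minus strand. It passed no test of rhythm, with amplitudes of 0.14 ± 0.07 under NRF (adjusted p = 0.252) and 0.16 ± 0.08 under DRF (adjusted p = 0.264). Under NRF the highest mean was at ZT0, with 19.4, 16.8, 15.8 and 23.1 TPM, and the lowest at ZT8, with 17.2, 10.9, 12.9 and 12.6 TPM. The NRF ZT24 mean, a day after ZT0, was 16.8 TPM, below those at ZT12 (17.8 TPM) and ZT16 (18.4 TPM). Under DRF the highest mean was at ZT12, with 25.3, 29.1, 22.7 and 28.5 TPM (26.4 ± 2.99, SD, n = 4), and the lowest at ZT16, with 19.2, 14.5, 12.4 and 14.8 TPM.

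At ZT12 the NRF mice had 20.6, 15.3, 17.2 and 18.1 TPM, all below the 4 DRF mice, and Ddit4 was 1.46-fold higher under DRF (0.55 ± 0.19, adjusted p = 0.034). The call was lost without DRF ZT12 replicate 1, 2 or 4 or NRF ZT12 replicate 2 or 3, with adjusted p up to 0.106. Several results of Ddit4 changed when the 7 kidneys high in adipose markers were left out. Its NRF rhythm (adjusted p = 0.0258), its test of a different rhythm (adjusted p = 0.0061) and its differences at ZT4 (0.46, adjusted p = 0.0364) and ZT8 (0.47, adjusted p = 0.0295) then passed. The part of adipose tissue in these values was not tested.

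Mt1 and Mt2 encode metallothioneins, small proteins that bind zinc and copper and are induced by metals, glucocorticoids and fasting. They are neighbours on the plus strand, at chr8:94179082-94180327 (Mt1) and chr8:94172664-94173568 (Mt2). The 250 bases before their RefSeq starts, which lie close to but not at the ends of those spans, are shown because the 2 genes moved together more closely than any other pair of the 8 and had the smallest adjusted p for a different rhythm. They are from RefSeq (GRCm38.p6), chr8:94178839-94179088 and chr8:94172368-94172617, and capitals mark the core of the metal response element, TGCGCNC or TGCACNC on either strand.
Mt1: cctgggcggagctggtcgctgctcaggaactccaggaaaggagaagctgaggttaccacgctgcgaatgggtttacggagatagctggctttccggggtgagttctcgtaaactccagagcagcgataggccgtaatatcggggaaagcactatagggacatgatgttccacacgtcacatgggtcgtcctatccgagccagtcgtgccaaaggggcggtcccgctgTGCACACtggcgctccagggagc
Mt2: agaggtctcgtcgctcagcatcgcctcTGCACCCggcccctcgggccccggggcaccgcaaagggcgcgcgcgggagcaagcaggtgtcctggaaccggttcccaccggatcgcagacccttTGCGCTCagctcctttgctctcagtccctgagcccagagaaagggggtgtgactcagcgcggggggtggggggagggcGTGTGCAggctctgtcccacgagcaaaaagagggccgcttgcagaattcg

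One core lay in the Mt1 window and 3 in that of Mt2. At least 1 was found in 21.4% of all windows and at least 3 in 1.26%. Of the other windows searched, that of Ddit4 also held 1. Neither window held the glucocorticoid half-site TGTTCT. Bases after these RefSeq starts were not searched, so the counts leave out any cores that lie there.

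Under NRF Mt1 was highest at ZT8, with 1063, 622, 558 and 660 TPM (726 ± 229, SD, n = 4), and lowest at ZT0, with 346, 293, 274 and 266 TPM. Under DRF it was highest at ZT0, with 675, 937, 1096 and 560 TPM (817 ± 244), and lowest at ZT16, with 457, 415, 343 and 288 TPM. ZT0 was thus the lowest NRF group and the highest DRF group. At the same clock time a day later, the NRF ZT24 mean of 409 TPM lay above those at ZT16 (332 TPM) and ZT20 (353 TPM), so the lowest place of this hour held on 1 of the 2 days. Mt2 had the same high groups. Under NRF it was highest at ZT8, with 762, 471, 394 and 545 TPM, and lowest at ZT16, with 222, 160, 113 and 142 TPM. Under DRF it was highest at ZT0, with 348, 612, 723 and 354 TPM, and lowest at ZT16, with 337, 261, 173 and 160 TPM. The DRF ZT24 mean of Mt2 was 400 TPM, below that at ZT4 (447 TPM).

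The Mt1 peak was at 8.72 ± 0.56 h (SE) under NRF and 0.27 ± 0.86 h under DRF. By the shorter way round the clock that is a shift of -8.45 h, with a 95% interval of -10.5 to -6.35 h. The Mt2 peak was at 8.15 ± 0.53 h and 0.58 ± 0.76 h, a shift of -7.57 h with an interval of -9.47 to -5.67 h. Amplitudes in log2 units were 0.57 ± 0.08 and 0.43 ± 0.08 for Mt1 (adjusted p = 1.25e-05 and 0.00125) and 0.80 ± 0.12 and 0.55 ± 0.10 for Mt2 (adjusted p = 1.15e-05 and 0.000366). The test of a different rhythm gave the smallest adjusted p of the 8 genes, 2.68e-07 for Mt1 and 2.26e-07 for Mt2. Moving the NRF profile in 4-h steps, the best match to DRF was a move of 16 h later, the same as 8 h earlier, with r over the 6 clock times of 0.87 for Mt1 and 0.92 for Mt2, given as a description.

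At ZT0 both genes were higher under DRF without overlap, Mt1 2.69-fold (log2 difference 1.43 ± 0.21, adjusted p = 3.04e-06) and Mt2 2.73-fold (1.45 ± 0.26, adjusted p = 7.47e-05). At ZT8 both were lower under DRF without overlap, Mt1 by a log2 difference of -0.71 ± 0.21 (adjusted p = 0.0171) and Mt2 by -1.11 ± 0.26 (adjusted p = 0.00228). At ZT12 Mt2 was lower again, by -0.90 ± 0.26 (adjusted p = 0.0111), and at ZT20 it was 1.93-fold higher (0.95 ± 0.26, adjusted p = 0.00855). The ZT8 call of Mt1 was lost without DRF ZT8 replicate 1 or NRF ZT8 replicate 1 (adjusted p up to 0.116), and the ZT20 call of Mt2 without NRF ZT20 replicate 1 (adjusted p = 0.0571).

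Mt1 also passed at ZT12 (-0.59 ± 0.21, adjusted p = 0.0445), ZT20 (0.63 ± 0.21, adjusted p = 0.031) and ZT24 (0.67 ± 0.21, adjusted p = 0.0256), but each of these was lost without single kidneys. For ZT12 these were DRF ZT12 replicate 1, 2 or 3 and NRF ZT12 replicate 1, 2 or 3 (adjusted p up to 0.143). For ZT20 they were DRF ZT20 replicate 1 or 3 and NRF ZT20 replicate 1, 3 or 4 (up to 0.124). For ZT24 they were DRF ZT24 replicate 1, 2 or 3, NRF ZT24 replicate 1 and the NRF ZT24 kidney with no number (up to 0.139). The ZT24 difference of Mt2 was of the same size, 0.67 ± 0.26, and did not pass (adjusted p = 0.0765).

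Set 12 h apart, Mt2 was 2.81-fold higher at DRF ZT4 than at NRF ZT16 (1.49 ± 0.26, adjusted p = 5.46e-05), and this held without any single kidney. Mt1 was 1.53-fold higher there (0.61 ± 0.21, adjusted p = 0.0347), a call lost without DRF ZT4 replicate 1, 2 or 3 or NRF ZT16 replicate 2, 3 or 4 (adjusted p up to 0.152). At the 5 other pairs of times neither gene passed. For Mt2 the difference between DRF ZT0 with ZT24 and NRF ZT12 was -0.03, with a 95% interval of -0.49 to 0.42, and between DRF ZT12 and NRF ZT0 with ZT24 it was 0.19 (-0.26 to 0.65). For Mt1 the same differences were 0.19 (-0.18 to 0.56) and 0.27 (-0.10 to 0.64). Differences inside these intervals were not detectable with 4 to 8 mice a side.

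**Figure D4:**
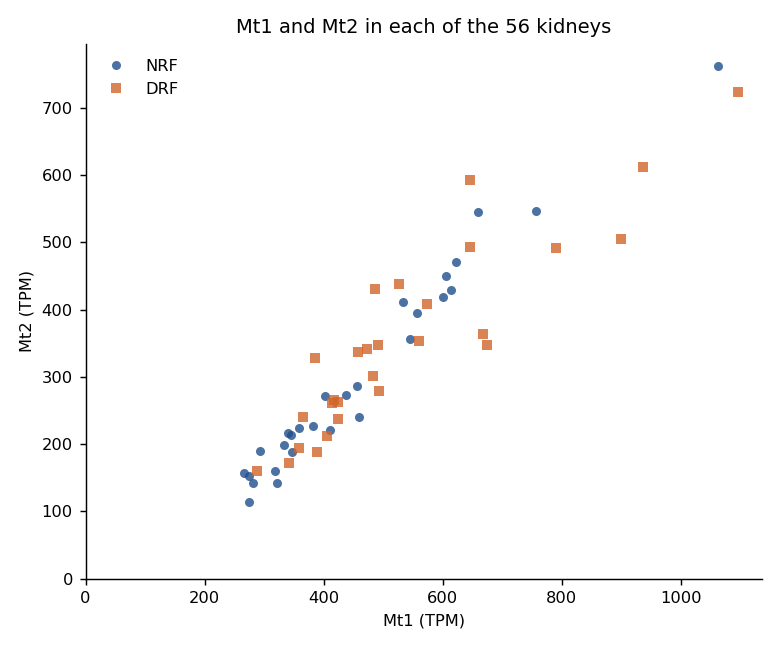
Mt2 against Mt1, both in TPM and both axes from 0, with 1 point for each of the 56 mice, NRF as blue circles and DRF as orange squares. Points of both regimens lie along 1 band, from 266 to 1096 TPM for Mt1 and from 113 to 762 TPM for Mt2.

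The ratio of Mt1 to Mt2 in a mouse ran from 1.09 to 2.43, with a median of 1.59. Its group mean was lowest at DRF ZT4 (1.15) and highest at NRF ZT16 (2.13). These 2 groups are 12 h apart, and the log2 difference between them was 1.49 for Mt2 and 0.61 for Mt1. The ratio itself was not tested, and its size depends on the gene lengths used, 1246 bases for Mt1 and 588 bases for Mt2.

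How the genes varied from mouse to mouse was described by correlating deviations from the group means over the 56 mice. Pairs share their kidney, with its depth and composition, and no test was made. Mt1 and Mt2 had r = 0.94 (Spearman rho 0.95, and r = 0.94 without the 2 mice farthest from the median). Tsc22d3 and Ddit4 had r = 0.71 (rho 0.62, 0.63 without the 2 farthest), Fkbp5 and Zbtb16 0.69 (0.60, 0.61), and Zbtb16 and Klf9 0.63 (0.62, 0.59). The metallothioneins deviated with none of the other 6 genes to that degree, as their r values with them lay between -0.09 and 0.17. Over the 14 group means, Fkbp5 and Zbtb16 had r = 0.89 and Fkbp5 and Tsc22d3 0.82, while Klf9 and Tsc22d3 had -0.05.

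For each gene, the 3 genes with a mean of at least 10 TPM whose 14 group means of log2(TPM + 1) correlated best with it were listed, as a description. For Fkbp5 they were Ncoa4 (r = 0.97), Slc43a3 (0.95) and Gk (0.93), and for Tsc22d3 Nat8f5, Slc16a9 and Hsd3b3 (each 0.93). For Zbtb16 they were Tnfrsf21 (0.93), the clock gene Per1 (0.92) and Frmd4b (0.91). For Klf9 they were Retreg1 (0.93), Ppara, the fasting-related nuclear receptor (0.92), and Rgs2 (0.92). The gene most like Mt1 was Mt2 and the reverse (0.95), followed for Mt1 by Eif6 (0.94) and Rom1 (0.94) and for Mt2 by Trappc6b (0.93) and Eif6 (0.91). For Nr3c1 they were Ogt (0.90), Apbb2 (0.90) and Bcr (0.88), and for Ddit4, which had the lowest likeness, 4921524J17Rik (0.78), Tmem199 (0.73) and Chsy1 (0.72).

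A wider list of 28 other genes known to respond to glucocorticoids was examined beside the 8, of which 26 could be tested. Of these, 22 were rhythmic under NRF (54.2% of all genes were), 12 under DRF (36% of all genes) and 15 had a different rhythm (45.2% of all genes), the last 2 counts being not far above the background. At ZT0, where 17% of all genes differed, 7 of the 26 were higher and 0 lower under DRF, with a median log2 difference of 0.36 against -0.02 over all genes. At ZT24 (14.8% of all genes), 9 were higher and 0 lower, with a median of 0.48 against -0.04, and at ZT16 (4.73%) 5 were higher and 0 lower, with a median of 0.29 against -0.02. At the other times both directions occurred. At ZT4 (27.5% of all genes) 4 were higher and 5 lower, at ZT8 (15.4%) 1 was higher and 4 lower, at ZT12 (18.9%) 3 were higher and 4 lower, and at ZT20 (17%) 6 were higher and 2 lower. The numbers of genes called at ZT0, ZT4, ZT8 and ZT12 were not far above the background. The 12 genes rhythmic under both regimens comprised 7 with a shift of at most 4 h, 2 with 4 to 8 h and 3 with at least 8 h. Over all 3392 genes rhythmic under both, 37.1% had a shift of at most 4 h and 28.7% one of at least 8 h.

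The largest differences in that list were in Angptl4 and Pdk4. Angptl4, an inhibitor of lipoprotein lipase, fell at ZT8 from a mean of 106 TPM under NRF to 6.77 TPM under DRF (log2 difference -3.76 ± 0.42, adjusted p = 1.1e-08). Pdk4, which restrains glucose oxidation, rose at ZT20 from 29.8 to 336 TPM (3.49 ± 0.33, adjusted p = 2.72e-10). Their peaks moved by 9.55 ± 0.46 h and -11.4 ± 0.56 h. Igfbp1, a binding protein of insulin-like growth factors, rose at ZT16 from 21.3 to 79.2 TPM (adjusted p = 3.91e-07), and the insulin receptor substrate Irs2 was lower at ZT12 by -0.99 ± 0.21 (adjusted p = 0.000615). Per1, a clock gene with a receptor response, was at 7.09 TPM under NRF and 30.4 TPM under DRF at ZT24 (1.97 ± 0.29, adjusted p = 4.52e-06), the time at which Zbtb16 also differed most. The cell cycle inhibitor Cdkn1a was higher at ZT12 by 0.89 ± 0.27 (adjusted p = 0.0157).

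**Figure D5:**
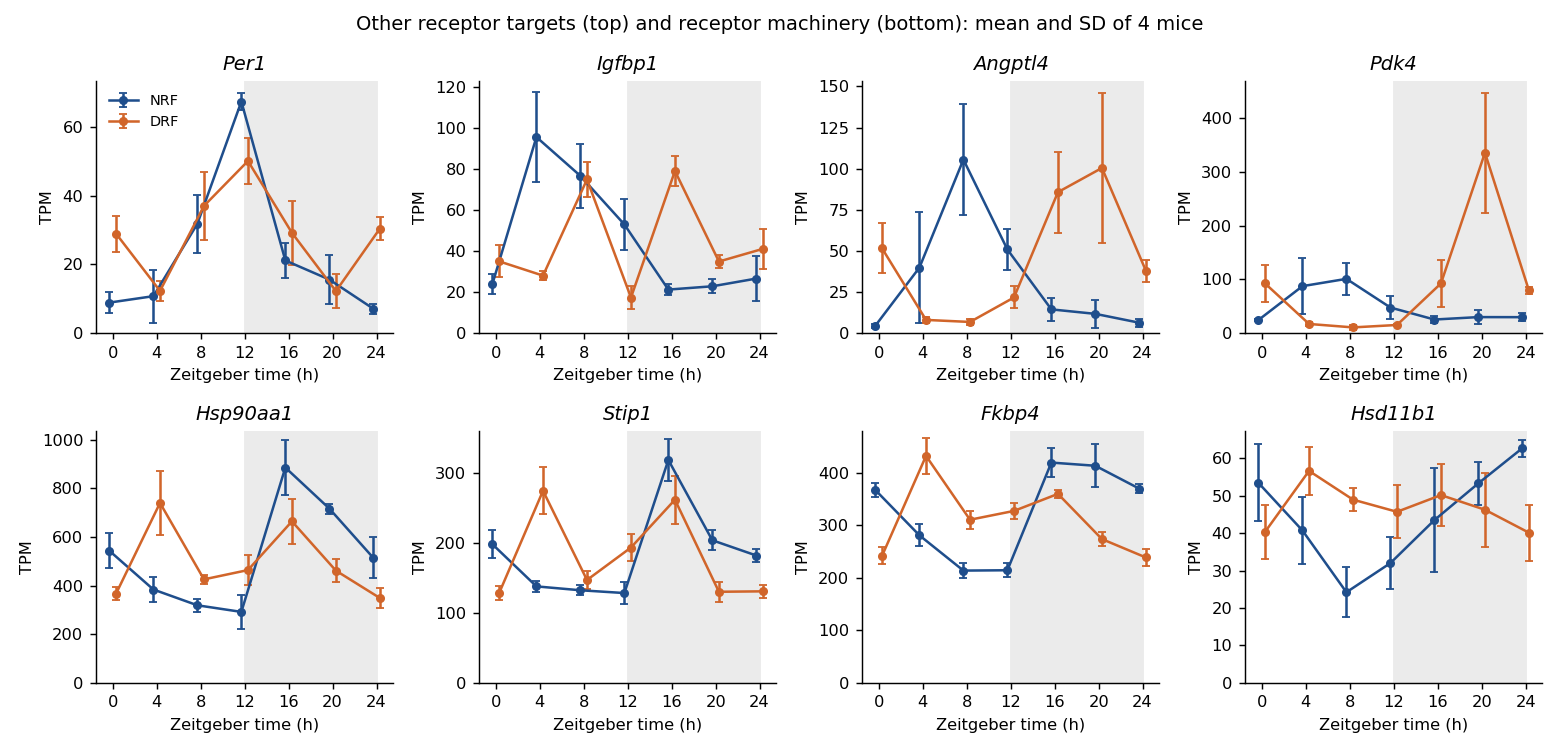
Level in TPM (vertical axis, from 0) against zeitgeber time in hours (horizontal axis) for 4 other receptor targets (top) and 4 genes of the receptor complex or of hormone metabolism (bottom), with NRF in blue and DRF in orange. Points are means of 4 mice, bars are SD and shading marks the dark phase. Pdk4 reaches a mean of 336 TPM at DRF ZT20, and Hsp90aa1 one of 740 TPM at DRF ZT4.

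Of 20 genes of the receptor complex and of hormone metabolism, 19 could be tested. Under NRF 13 were rhythmic (54.2% of all genes were), under DRF 3 (36% of all genes), and 12 had a different rhythm (45.2% of all genes). A 12-h component passed in 11 of the 19 under DRF (24.7% of all genes) and in 3 under NRF (0.644% of all genes). At ZT4, where 27.5% of all genes differed, 8 were higher and 2 lower under DRF, with a median log2 difference of 0.12 against -0.05 over all genes. The counts higher and lower were 5 and 0 at ZT8 (15.4% of all genes) and 9 and 2 at ZT12 (18.9%). They were 0 and 7 at ZT0 (17%) and 0 and 5 at ZT16 (4.73%). For ZT20 (17%) they were 0 and 8, and for ZT24 (14.8%) 0 and 7. Hsp90aa1 had 384 TPM under NRF and 740 TPM under DRF at ZT4 (0.94 ± 0.13, adjusted p = 4.04e-07), Hsp90ab1 differed by 0.67 ± 0.08 (adjusted p = 4.11e-09), Stip1, which links the chaperones Hsp70 and Hsp90, by 0.98 ± 0.09 (adjusted p = 4.07e-11), and Ptges3, the p23 co-chaperone, by 0.63 ± 0.06 (adjusted p = 3.12e-10). ZT4 is also the time of the light-phase rise of Tsc22d3 and of the low point of Klf9.

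Fkbp4, the co-chaperone related to Fkbp5, was lower under DRF at ZT24, from 370 to 239 TPM (-0.63 ± 0.06, adjusted p = 2.3e-09), and its peak moved from 20.3 to 9.79 h (adjusted p of a different rhythm 1.02e-09). Hsd11b1, which regenerates active hormone inside cells, was higher under DRF at ZT8, with means of 24.2 TPM under NRF and 48.9 TPM under DRF (1.02 ± 0.19, adjusted p = 0.00016).

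Of 8 genes of metal transport and sensing, 7 could be tested, and 2 had a different rhythm, a share below the 45.2% of all genes. The zinc importer Slc39a10 was lower at ZT0 under DRF (-0.58 ± 0.14, adjusted p = 0.00258), and the zinc exporter Slc30a1 was higher (0.28 ± 0.09, adjusted p = 0.0232), at the time when Mt1 and Mt2 differed most. These 2 of the 7 were the only members of the list called at ZT0, where 17% of all genes differed. Of 8 genes that restrain mTORC1 or its inputs, 7 could be tested and 4 had a different rhythm, a share near the 45.2% of all genes. Txnip fell at ZT8 from 971 to 333 TPM (-1.53 ± 0.20, adjusted p = 3.73e-07), Sesn2 at ZT12 by a log2 difference of -0.71 ± 0.13 (adjusted p = 7.63e-05) and Deptor at ZT4 by -0.56 ± 0.09 (adjusted p = 4.8e-06). At ZT12, where Ddit4 was higher and 18.9% of all genes differed (980 higher and 1537 lower), 4 of the 7 were lower and 0 higher. Ddit4l, a relative of Ddit4, had its largest difference at ZT12 too (0.44 ± 0.25), which did not pass (adjusted p = 0.227).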

How the data were processed

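Poly(A) RNA of 56 mouse kidneys was sequenced as read pairs, and the labels place 4 kidneys in each of 14 groups of regimen and zeitgeber time. The labels name HISAT2, Bowtie2, RSEM and the builds mm10 and GRCm38.p6, without versions. The values the authors deposited are named TPM, but they behave as a score, log2 of CPM + 1 divided by gene length and scaled in each kidney to nearly the same sum. This form was inferred from the steps of the values and is stated in no source used here, and every recomputed TPM rests on it. Genes are given as Entrez IDs, which were matched to RefSeq symbols (GRCm38.p6).

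From that score, reads were recovered for 16574 of 17027 genes (453 were left out). Of these, 14959 genes were kept because a share of at least 0.5 of their values were whole reads. In those genes 99.0% of the values above 0 were whole within 0.05 read, a share that this choice of genes partly sets. The other 1615 genes gave reads in steps of 0.01 and are not in that share. All 8 genes gave whole reads in all 56 kidneys, Nr3c1 and Klf9 at lengths that were searched for by this property. Linear TPM was recomputed from these reads. The design assumed linear TPM in the table, and the recomputed values were used for it. Recovered reads were 22.7 to 25.1 M per kidney, and one read is a small part of any value printed.

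Tests used limma 3.58.1 (R 4.3.3, Python 3.11.15) with a mean-variance trend on log2(TPM + 1), over 13348 genes with a mean of at least 1 TPM, two-sided, with Benjamini-Hochberg adjustment over all genes tested and a threshold of 0.05. Folds beside a log2 difference are on the TPM + 1 scale. Rhythms were cosines with periods of 24 and 12 h, with ZT24 at the phase of ZT0, and phase errors came from the delta method. Each regimen was fitted on its own 28 kidneys, and differences used all 56. The recovery and the tests were checked on simulated data. Nothing in the sources used says that same-numbered kidneys share a litter or a day, so p-values measure the spread between these mice. One NRF ZT24 kidney has no number in its column that matches the labels, and it was used as a kidney of that group.

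The 8 genes and the gene lists were chosen with earlier results of these data known. Named genes beside the 8 were the 3 most alike by group means (at least 10 TPM) and, from each list, up to 6 genes with a different rhythm and the largest difference at any time. Alternatives tried were median-of-ratios rescaling, the deposited values as they stand, a pseudocount of 0.1, a mean of at least 5 TPM or no filter, no trend, the replicate number as a block, and leaving out each replicate number, ZT24 or ZT0. Voom on the recovered reads, leaving out 7 kidneys high in adipose markers and leaving out each single kidney were added after seeing the data. For phases, a cosine on linear TPM was also fitted. The time of feeding within the day and night is not given in the sources used here.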

Additional observations from a re-analysis of the deposited data

Results flagged for a closer look

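The test of a difference in 24-h rhythm between regimens passed for 4 of the 8 genes, with adjusted p (limma) of 0.00078 for Tsc22d3, 0.000142 for Klf9, 2.68e-07 for Mt1 and 2.26e-07 for Mt2. The fitted 24-h peak of Tsc22d3 moved by -3.07 h, and those of Mt1 and Mt2 by -8.45 and -7.57 h. Klf9 had an amplitude of 0.47 in log2 units under NRF and 0.09 under DRF.

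In 4 of the 112 groups of 4 mice, 1 mouse stood apart from the other 3 by Dixon's criterion, which chance meets in about 1 in 20 groups. Tsc22d3 was at 110 TPM in NRF ZT16 replicate 2, where the others were between 65.0 and 67.1 TPM, and at 124 TPM in DRF ZT16 replicate 1, where the others were between 74.8 and 81.7 TPM. In NRF ZT24 replicate 1, Tsc22d3 was at 19.8 TPM, below 23.8 to 24.5 TPM in the others. Nr3c1 was at 70.8 TPM in DRF ZT4 replicate 4, above 56.1 to 58.0 TPM in the others.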

How the results depend on the processing

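No result changed direction with a call under any alternative. The counts of rhythmic genes (6 under NRF, 5 under DRF) held within 1.5 times under every alternative. The mesor count of 1 became 2 with median-of-ratios rescaling, 2 with the deposited values, 0 without ZT24 and 2 without the 7 kidneys high in adipose markers. With median-of-ratios rescaling the DRF 12-h count of 3 became 5 and the count 12 h apart at DRF ZT0 went from 3 to 5. Without the 7 kidneys high in adipose markers, the ZT16 count of 1 became 0 and the DRF ZT4 count 12 h apart went from 5 to 3. With voom the DRF ZT8 count 12 h apart went from 2 to 1. Leaving out all kidneys of a replicate number, or any single kidney, the mesor count ran from 0 to 2, the DRF 12-h count from 1 to 5, and the same-time counts from 1 to 2 at ZT8, 2 to 5 at ZT12, 0 to 2 at ZT16 and 0 to 3 at ZT20. The counts 12 h apart ran from 2 to 6 at DRF ZT4, 0 to 3 at DRF ZT8 and 1 to 3 at DRF ZT20. The causes of these changes were not tested. Same-numbered kidneys did not deviate together (mean correlation 0.009 against -0.001 for other pairs, with 137 of 351 pairs above 0.1), so the numbers were not taken as pairs. With the replicate block, 12-h calls under DRF went from 3 to 2, as Fkbp5 was lost (adjusted p = 0.0562), and calls 12 h apart at DRF ZT12 from 6 to 5, as Nr3c1 was lost (adjusted p = 0.0929), and no other call changed. That setting also left out the NRF ZT24 kidney with no number. Leaving out that kidney alone lost the Nr3c1 call as well. Depth was not limiting, as the lowest value of the 8 genes rested on 42 reads.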
